A study of Mus musculus with 6 samples.

Results

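The LIM-homeobox factors of the molar and the proteins that work with them were read as 10 genes, listed by name: the LIM-homeobox genes Lhx6, Lhx8, Lhx9, Lhx2, Isl1 and Lmx1b, the LIM-only genes Lmo1 and Lmo4, and the LIM-domain-binding genes Ldb1 and Ldb2. All 10 are among the 23594 genes of the deposited table, and 9 had enough counts to be tested. RNA came from mandibular first molars at PN4.5, from the apical part of the region where the roots divide, named the furcation development region (FDR), cut out of frozen sections with a laser. The 3 control libraries carry the genotype label Wild type and the strain label C57BL/6, and the methods name littermates of the mutants as controls. The 3 Lhx6-/- libraries have the same strain and age, 4.5 days. Their mice are homozygous for a knock-in of CreER, a recombinase that acts only with tamoxifen, at the Lhx6 locus, a germline change that abolishes gene function, and no tamoxifen is stated for these libraries. Each library pools tissue of several molars, mice of both sexes were collected, and p-values measure the spread between these pools.

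LIM-homeodomain factors bind DNA through their homeodomain, often at a short core of the letters TAATTA or TAATTG, and bind other proteins through a pair of LIM domains. Ldb1 and Ldb2 are bridges: they dimerise and hold LIM domains, so that LIM-homeodomain factors are assembled into complexes on DNA. LMO proteins are LIM domains without a homeodomain, and compete for the same bridge. Lhx6 and Lhx8 are close relatives that are expressed together in the neural crest-derived mesenchyme of the embryonic jaw and are together needed for early molar development, while Isl1 and Lhx2 are best known from motor neurons, the heart, the forebrain and hair follicles.

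Sequences just upstream of 3 of these genes are shown because the results turn on Lhx6 and Lhx8, and because Lmo1 alone of the 9 genes with a RefSeq entry held the TAATTA core. They are RefSeq sequences of GRCm38.p6, the assembly of mm10, all on the minus strand, read 5′ to 3′ up to the last base before the annotated gene. Capitals mark TAATTA and TAATTG, which were searched on both strands (TAATTG also as CAATTA).
Lhx6 (chr2:36105409-36105658): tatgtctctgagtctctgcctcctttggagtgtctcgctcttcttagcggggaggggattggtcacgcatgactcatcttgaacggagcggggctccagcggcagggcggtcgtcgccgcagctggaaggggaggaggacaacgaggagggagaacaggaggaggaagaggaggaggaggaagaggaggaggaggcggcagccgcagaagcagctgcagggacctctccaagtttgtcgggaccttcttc
Lhx8 (chr3:154330660-154330810): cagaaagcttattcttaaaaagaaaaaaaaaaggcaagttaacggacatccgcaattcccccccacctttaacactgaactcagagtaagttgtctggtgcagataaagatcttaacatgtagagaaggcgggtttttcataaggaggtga
Lmo1 (chr7:109175208-109175457): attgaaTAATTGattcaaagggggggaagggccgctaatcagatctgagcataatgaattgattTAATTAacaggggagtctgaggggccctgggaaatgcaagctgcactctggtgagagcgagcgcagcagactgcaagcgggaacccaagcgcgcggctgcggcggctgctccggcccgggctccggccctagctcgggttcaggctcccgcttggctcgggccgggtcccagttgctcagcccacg
RefSeq entries were matched for 9 of the 10 genes, and Ldb2 is named only. Within 250 bases upstream of any annotated start, TAATTA was found at Lmo1 only, at position -186 from its first start. TAATTG lay at -244 from that start, at -229 from an internal start of Lhx6 and at -101 from an internal start of Ldb1. Over all 32841 mouse promoters of the same length, 4.84% held TAATTA and 7.17% held TAATTG. Counted per gene over any annotated start, 5.65% of 27018 genes held TAATTA and 8.3% held TAATTG. These matches describe letters and are not binding sites.

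Libraries held between 60132323 and 76157433 estimated counts, and levels are given as counts per 1000000 after TMM scaling (CPM), which compares libraries but not genes of different length. Summed markers of odontoblasts were between 70209 and 91092 CPM, those of dental follicle and periodontal ligament between 973 and 1085 CPM, and enamel genes of ameloblasts between 114831 and 146232 CPM, so RNA of dental mesenchyme and of epithelium was present in every library. Col1a1 alone made up most of the odontoblast sum, at 64844 to 85297 CPM, while Dspp was at 4283 to 5992 CPM. Dental epithelium markers summed to 1299, 2031 and 1415 CPM in controls (replicates 1, 2, 3), against 943, 1022 and 1109 CPM in mutants. All 10 of these markers were lower on average in Lhx6-/- tissue, from Krt17 at 49.1% to Shh at 96.9% of control, and none was at 0 in any library. None had an adjusted p under 0.05 by edgeR, as 0.403% of all tested genes had. Endothelial markers were higher, with 8 of 8 above control on average and sums of 340.4 to 346 CPM against 379.8 to 443 CPM. The 4 Y-linked genes summed to 17.4, 58.0 and 14.6 CPM in control and to 55.1, 92.1 and 88.5 CPM in Lhx6-/- libraries, with controls 1 and 3 well below the rest. In bulk tissue, fewer cells of a type and less RNA per cell cannot be told apart.

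Lhx6 fell to 48.8% of its control level, and it was the single gene of the 10 that passed the adjusted test. The gene spans chr2:36081953-36105408 in mm10, minus strand, and its exons overlap those of a small non-coding RNA on the same strand, Gm27953. In controls the 3 libraries gave 27.8, 18.2 and 21.9 CPM of Lhx6, against 12.8, 9.82 and 10.5 CPM in mutants, listed here and below as replicates 1, 2 and 3. The lowest control library was above the highest Lhx6-/- library, and control replicate 1 stood highest. The mean level went from 22.6 ± 4.83 (SD, n = 3) to 11.0 ± 1.57 (SD, n = 3). The log2 fold change was -1.04 (standard error 0.16, 95% interval -1.38 to -0.69), with an adjusted p of 0.021 by the edgeR quasi-likelihood method, Benjamini-Hochberg adjusted over all tested genes. By p-value Lhx6 was number 37 of the 20114 genes tested. Counts were summed over the gene, so the part of the transcript that remained in mutants is not resolved. With the dental epithelium sum as a covariate the log2 fold change was -1.54 (adjusted p = 0.00451, edgeR), and with the Y-linked sum it was -0.62 (adjusted p = 0.115, edgeR). The adjusted p was also above 0.05 without control replicate 3 (0.111, log2 fold change -1.06), without Lhx6-/- replicate 2 (0.11, log2 fold change -0.96) and without Lhx6-/- replicate 3 (0.0772), each by edgeR. The covariate fits here and below cannot separate covariate from genotype, because both sums differ between the groups, the dental epithelium sums without overlap.

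Lhx8 stood slightly higher in mutants, in all 3 of them, but not past the adjusted test. Lhx8 spans chr3:154306294-154330659, also on the minus strand. Control libraries held 16.8, 15.9 and 15.3 CPM of it and mutant libraries 20.4, 18.5 and 19.2 CPM. Every Lhx6-/- library was above every control library, and the spread within each group was small. Means were 16.0 ± 0.740 and 19.4 ± 0.941 CPM (SD, n = 3 each), a 1.21-fold difference. Its log2 fold change was 0.28 (standard error 0.09, 95% interval 0.07 to 0.48), with an unadjusted p of 0.0114 and an adjusted p of 0.315 from edgeR. Over 17 alternative fits the log2 fold change ran from 0.22 to 0.32 and the adjusted p from 0.241 to 0.714.

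The ratio of Lhx6 to Lhx8 within a library does not depend on the scaling of that library. Per count it was 1.66, 1.15 and 1.43 in the controls, against 0.628, 0.530 and 0.546 in the mutants. Lhx6 gave more counts than Lhx8 in every control library and fewer in every Lhx6-/- library. The mean log2 ratio was 0.48 ± 0.27 in control and -0.82 ± 0.13 in Lhx6-/- libraries (SD, n = 3 each), a difference of -1.30 or a 2.46-fold lower ratio (exact permutation test, two-sided, p = 0.1, the smallest p that 3 against 3 libraries allow). Per kb of exon the ratio was 0.872, 0.604 and 0.754 in control and 0.331, 0.279 and 0.288 in Lhx6-/- libraries. By this length Lhx8 was the higher of the pair in all 6, while by counts Lhx6 was the higher in controls. The length is the union of exons over all annotated transcripts, 9 for Lhx6 and 5 for Lhx8. Which transcripts are expressed was not tested, so the order of the pair in controls depends on the length used. Mutant ratios use the full exon length of Lhx6, although the part of its transcript that remained is not resolved. Added together, Lhx6 and Lhx8 gave 38.6 ± 5.37 CPM in control and 30.4 ± 2.50 CPM in Lhx6-/- libraries (SD, n = 3 each). Every Lhx6-/- sum in CPM was below every control sum, 33.2 CPM being the highest mutant sum and 34.1 CPM the lowest control sum. This sum weights Lhx6, with 4.8 kb of exon, more than Lhx8, with 2.53 kb. The separation of the sums did not hold per kb of exon. After birth, the paper places Lhx8 mainly in pre-odontoblasts, outside the apical area rich in Lhx6. Ratio and sum in bulk tissue may thus combine different cells, and how far they do was not tested.

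**Figure D1:**
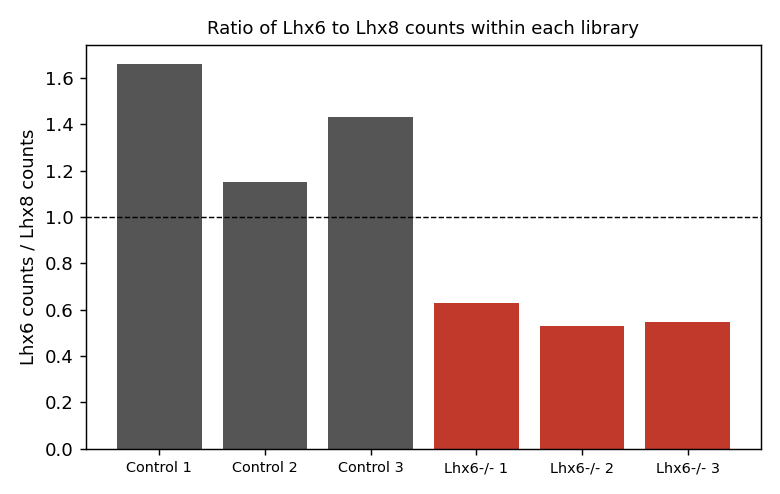
Estimated counts of Lhx6 divided by those of Lhx8 (y axis, linear from 0) in each of the 6 libraries (x axis; grey control, red Lhx6-/-), with a dashed line at 1. Control bars lie between 1.15 and 1.66, and Lhx6-/- bars between 0.530 and 0.628.

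The 4 other LIM-homeobox genes were low. Isl1 (chr13:116298281-116309689, minus strand) was at 0.755, 2.99 and 1.47 CPM in controls, against 0.704, 1.36 and 1.01 CPM in mutants. The groups overlapped, and control replicate 2 stood above all other libraries. That library also had the highest dental epithelium sum (2031 CPM) and the highest nerve and glia sum, 419 CPM against 155 to 396 CPM in the others, and the part of either in the Isl1 level was not tested. For Isl1 the log2 difference was -0.76 (standard error 0.46, 95% interval -1.78 to 0.25, adjusted p = 0.67, edgeR). Without control replicate 1 it was -1.12 (unadjusted p = 0.0187, adjusted p = 0.285, edgeR), without control replicate 2 it was -0.12, and with the dental epithelium covariate it turned positive (standard error 0.62, adjusted p = 0.636, edgeR).

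Lhx2 (chr2:38339281-38369733, plus strand), a factor of forebrain and hair follicle, was at 0.868, 0.928 and 0.287 CPM in controls, against 0.753, 0.430 and 0.336 CPM in mutants. Lmx1b (chr2:33560965-33640511, minus strand), known for dorsal limb and nail patterning, was at 0.209, 0.254 and 0.575 CPM in control and 0.246, 0.537 and 0.376 CPM in Lhx6-/- libraries. Both overlapped between genotypes, and neither passed the test, with log2 fold changes of -0.46 (95% interval -1.66 to 0.74) for Lhx2 and 0.17 (95% interval -1.19 to 1.53) for Lmx1b. The Lhx2 value turned on single libraries, from -0.20 without control replicate 2 and -0.24 without Lhx6-/- replicate 3 to -0.83 without control replicate 3 and -0.86 without Lhx6-/- replicate 1. For Lmx1b the sign was opposite in 4 of 17 alternative fits. Lhx9 (chr1:138825186-138848577, minus strand), known from the gonad, had 0, 2 and 10 counts in control and 0, 7 and 6 counts in Lhx6-/- libraries, too few to test, and no fold is given. At this depth a difference in these genes smaller than their intervals was not detectable.

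The LIM-only genes differed from each other in level and in spread. Lmo4 (chr3:144188530-144205220, minus strand), a widely expressed transcriptional cofactor, was at 30.4, 35.6 and 32.2 CPM in controls, against 32.5, 30.0 and 31.8 CPM in mutants. The groups overlapped almost entirely. The log2 fold change of Lmo4 was -0.06 (95% interval -0.24 to 0.13, adjusted p = 0.897, edgeR), and its sign was opposite in 2 of 17 alternative fits. Lmo1 (chr7:109138572-109175207, minus strand), first known as a leukaemia oncogene, was at 2.72, 3.05 and 3.97 CPM in control and 1.85, 2.90 and 2.30 CPM in Lhx6-/- libraries. One Lhx6-/- library, replicate 2, lay within the control range and the other two lay below it. The log2 fold change of Lmo1 was -0.46 (standard error 0.25, unadjusted p = 0.084, adjusted p = 0.601, edgeR), and it ran from -0.29 without control replicate 3 (unadjusted p = 0.291, edgeR) and -0.32 without Lhx6-/- replicate 1 (unadjusted p = 0.247, edgeR) to -0.64 without Lhx6-/- replicate 2 (unadjusted p = 0.0412, adjusted p = 0.72, edgeR).

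Of the bridging proteins, Ldb1 differed less between genotypes than its own spread and Ldb2 was the one whose groups separated. Ldb1 was at 180, 148 and 161 CPM in controls, against 169, 184 and 155 CPM in mutants. The groups overlapped, with means of 163 ± 16.3 and 169 ± 14.3 CPM (SD, n = 3 each). The log2 fold change of Ldb1 was 0.06 (95% interval -0.14 to 0.25, adjusted p = 0.91, edgeR), with the opposite sign in 3 of 17 alternative fits. Ldb1 spans chr19:46031570-46045214 on the minus strand, and its exons overlap those of Pprc1 on the other strand. Whether counting used the strand is not given in the sources used here, so reads of the overlap may belong to either gene. Ldb2 (chr5:44472132-44799680, minus strand), its paralog, was at 12.7, 15.2 and 13.4 CPM in control and at 16.4, 16.6 and 15.3 CPM in Lhx6-/- libraries. All 3 Lhx6-/- libraries were above all 3 controls, although the lowest of them and the highest control, 15.3 and 15.2 CPM, nearly met. Its log2 fold change was 0.22 (95% interval -0.01 to 0.45, unadjusted p = 0.0565, adjusted p = 0.53, edgeR). With the Y-linked covariate it was 0.07 (unadjusted p = 0.639, edgeR), with the dental epithelium covariate 0.41 (unadjusted p = 0.0362, adjusted p = 0.455, edgeR), and without control replicate 2 it was 0.30 (unadjusted p = 0.0194, adjusted p = 0.456, edgeR).

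**Figure D2:**
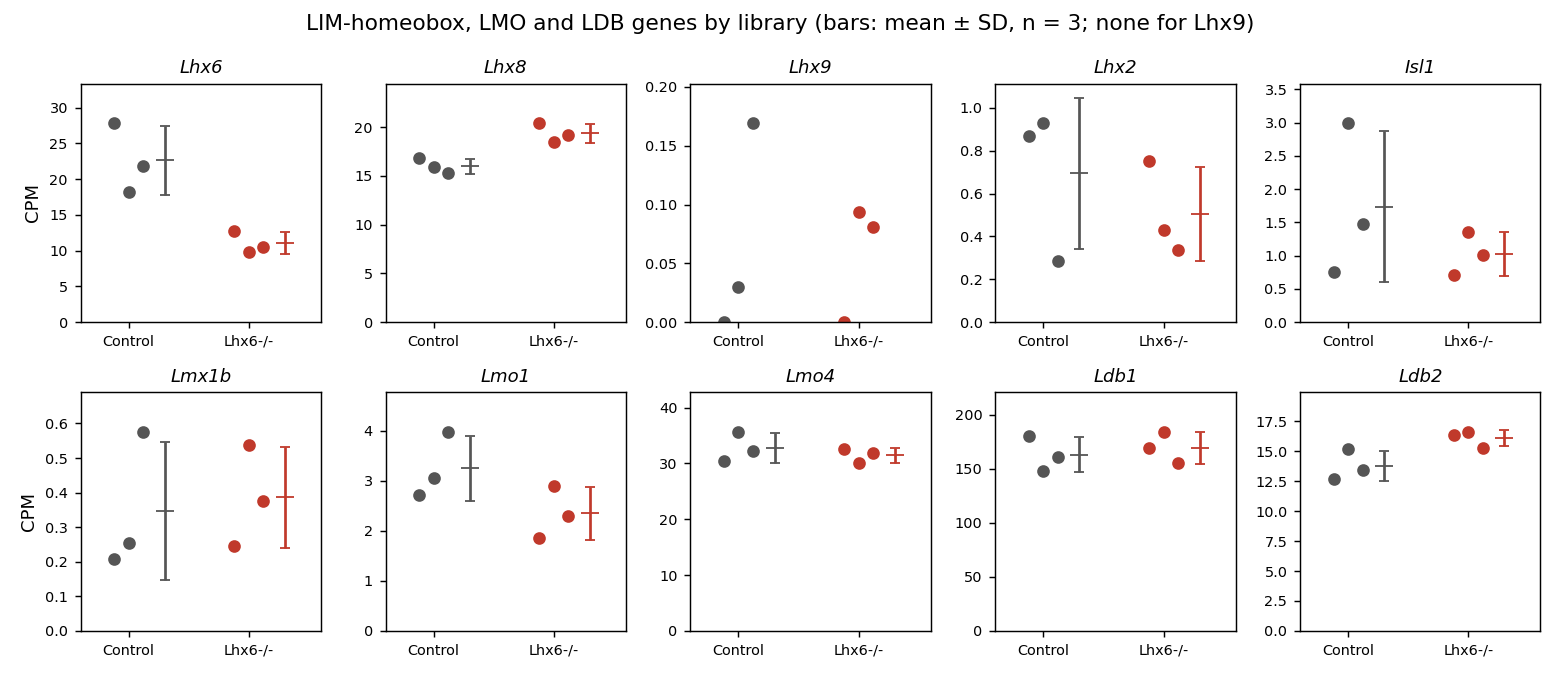
CPM (y axis, linear from 0, a separate range in each panel) of the 10 genes in 3 control (grey) and 3 Lhx6-/- (red) libraries, points from left to right being replicates 1, 2 and 3, with bars for mean ± SD except for Lhx9. Groups are apart for Lhx6 (9.82 to 12.8 CPM in mutants, 18.2 to 27.8 CPM in controls), Lhx8 and Ldb2 and overlap for the other genes.

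Counted together, 1 of the 9 tested genes (Lhx6) met the rule of a 1.5-fold change with an unadjusted p under 0.05, which 660 of all 20114 tested genes met (3.28%, with 1.71% lower and 1.58% higher in Lhx6-/- tissue). At an adjusted p under 0.05 it was again Lhx6 alone, against 81 genes or 0.403% of all tested (0.0795% lower and 0.323% higher). Lhx6 is the gene that the knock-in disrupts, so its call says nothing of the rest of the family. None of the other tested genes met either threshold. Of the 9 genes, 4 had a higher and 5 a lower mean in Lhx6-/- tissue, with a median log2 fold change of -0.06 against -0.0019 over all tested genes. The libraries of the genotypes did not overlap for Lhx6, Lhx8 and Ldb2, 3 of 9 genes, while 15.5% of all tested genes did not overlap (7.68% with the mutants below, as Lhx6, and 7.86% with the mutants above, as Lhx8 and Ldb2).

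Genes of different length were ordered per kb of exon, the union of exons over all annotated transcripts. The order of near values, as of Lhx8 and Lhx6 in controls, depends on that length. Ldb1 stood far above the rest in control tissue at 35.3 CPM per kb. Lmo4 followed at 9.27, Lhx8 at 6.32, Lhx6 at 4.71, Ldb2 at 4.13 and Lmo1 at 2.09 CPM per kb, all as control means. The ranges of Lhx6 (3.79 to 5.78) and Ldb2 (3.81 to 4.56) overlapped, so that pair has no clear order in controls. Isl1, Lhx2, Lmx1b and Lhx9 were at 0.439, 0.158, 0.0709 and 0.00699 CPM per kb, and the ranges of Isl1 and Lhx2, and of Lhx2 and Lmx1b, overlapped. In Lhx6-/- tissue the order was the same except that Lhx6, at 2.30 CPM per kb (2.04 to 2.67), was below Ldb2, at 4.82 CPM per kb (4.58 to 4.98), with no overlap. That Lhx6 value uses the full exon length, although the part of the transcript that remained in mutants is not resolved. The gene of the bridging protein Ldb1 gave more RNA per length than the 6 LIM-homeobox genes and the 2 LIM-only genes in both genotypes.

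**Figure D3:**
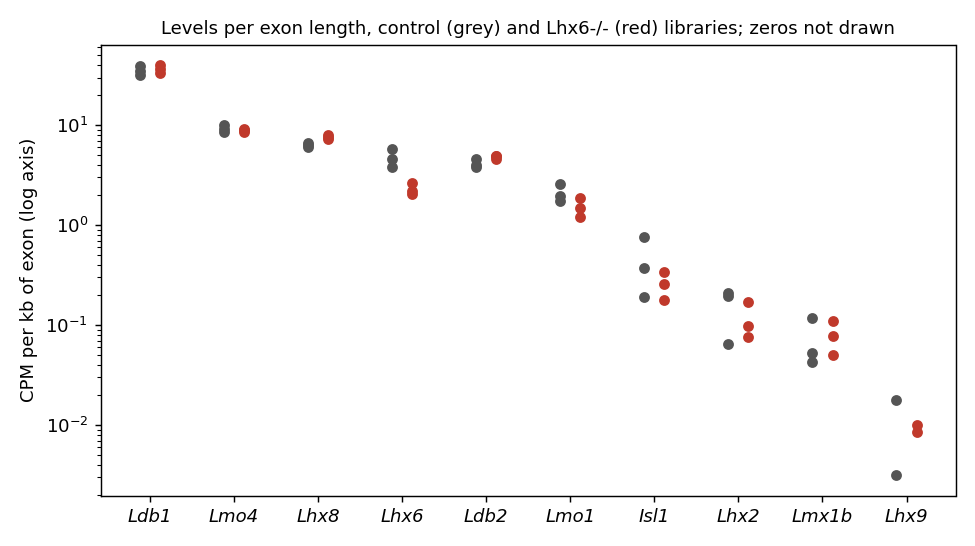
CPM per kb of exon (y axis, log scale) for the 10 genes, ordered by control mean, with 1 point per library (grey control, red Lhx6-/-) and zeros of Lhx9 not drawn. Ldb1 lies highest (control mean 35.3) and the genes span from there to Lhx9 near 0.007, and only for Lhx6 are the red points clearly below the grey ones.

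Other genes of the LIM-homeobox and LMO families and known partners of LDB proteins were read from a list of 12. Of these 12 listed, Lhx1, Lhx3 and Lhx5 are not in the table, which holds genes that reach at least 10 counts in some library, and Lhx4 was too low to test. None of the 8 tested met the fold rule or an adjusted p under 0.05, and 0 had an unadjusted p under 0.05 in edgeR. Over all tested genes these shares were 3.28%, 0.403% and 9.81%, at which 8 genes would give few calls or none. The LDB-binding Ssbp3 was at 90.8 CPM in control and 88.2 CPM in Lhx6-/- tissue, Ssbp4 at 68.7 and 70.5 CPM and Ssbp2 at 20.8 and 23.4 CPM (means, n = 3 each). Rlim, a ubiquitin ligase that acts on LDB and LIM proteins, was at 37.4 and 38.6 CPM, and Lmo2, an organiser of blood and endothelial complexes, at 10.4 and 11.2 CPM. Lmx1a (0.822 and 1.13 CPM), Isl2 (0.135 and 0.210 CPM) and Lmo3 (0.233 and 0.207 CPM) were near the bottom of the range. The median log2 fold change of these 8 genes was 0.07, and -0.03 with the dental epithelium covariate.

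**Figure D4:**
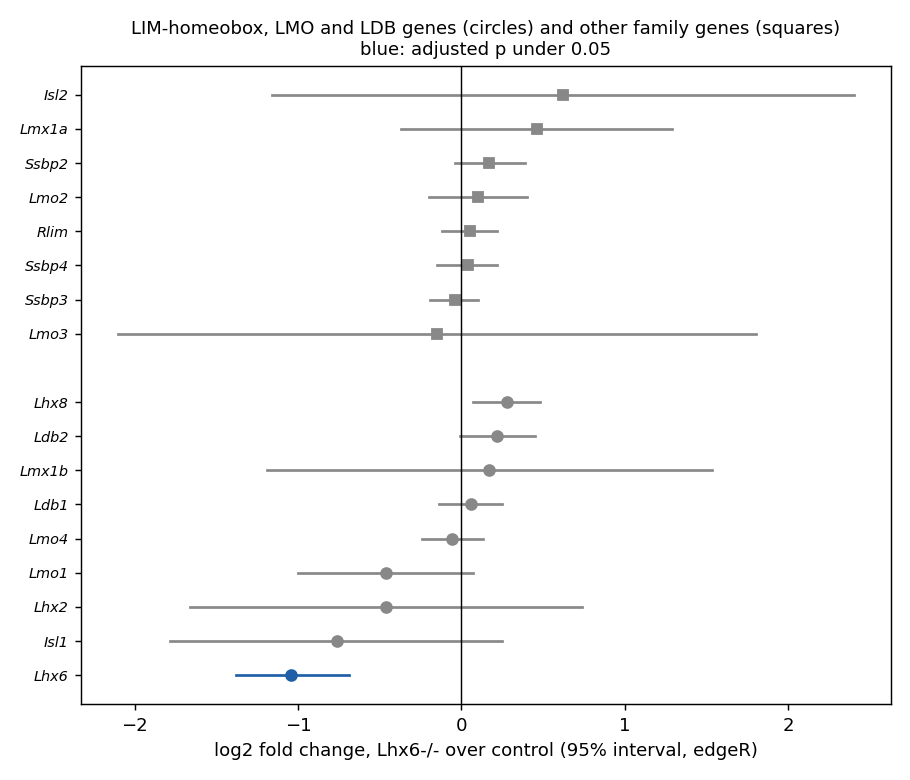
Log2 fold change of Lhx6-/- over control (x axis) with 95% intervals from edgeR for 9 of the 10 genes (circles) and 8 other family and partner genes (squares); blue marks an adjusted p under 0.05. Lhx6 at -1.04 is blue, and the interval of Lhx8, 0.07 to 0.48, is the other one that lies to one side of 0.

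Genes known downstream of or beside Lhx6 in interneurons and the palate were looked at as its pathway. Of 13 listed, 12 are in the table and all 12 were tested, 5 with a higher and 7 with a lower mean in Lhx6-/- tissue, and 1 met the fold rule and the adjusted test, which 3.28% and 0.403% of all tested genes met. The number meeting the fold rule was 3 in limma-trend, with the Y-linked covariate and without control replicate 1, and 2 with the replicate block and without control replicate 2. The gene called by edgeR was Sst, which encodes the peptide hormone somatostatin and is a marker of Lhx6-lineage interneurons. Sst had 37, 20 and 34 counts in controls, against 216, 129 and 155 counts in mutants. All mutant libraries were above all controls. On the CPM scale it rose from 0.490 ± 0.165 to 2.45 ± 0.956 (SD, n = 3 each), or by 2.32 on the log2 scale (standard error 0.39, adjusted p = 0.0262, edgeR). The adjusted p of Sst was not under 0.05 in 6 of 17 alternative fits, among them those without control replicate 2 or 3 (0.0566 and 0.119, edgeR) and without Lhx6-/- replicate 1, 2 or 3 (0.169, 0.0796 and 0.0532, edgeR), and with the dental epithelium covariate the log2 fold change was 1.24 (adjusted p = 0.525, edgeR). The chemokine receptors Cxcr4 and Ackr3 had log2 fold changes of -0.12 and -0.30. Cdkn1c, a cell cycle inhibitor, was at 175, 176 and 177 CPM in controls, against 197, 189 and 203 CPM in mutants, without overlap. The log2 fold change of Cdkn1c was 0.16 (unadjusted p = 0.0364, adjusted p = 0.473, edgeR), so it did not pass the adjusted test. The paper reports higher Cdkn1c in this region of mutants at the same age by RT-qPCR. Of the 12 genes, 4 had all mutant libraries above all controls and 0 had them all below. The median over the 12 genes was -0.05, and it was 0.19 with the dental epithelium covariate, 0.08 with the Y-linked covariate and 0.02 without Lhx6-/- replicate 1.

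Among 19 transcription factors of the jaw and dental mesenchyme, all tested, 15 had a higher mean in Lhx6-/- tissue and 2 met the fold rule and the adjusted test, against the 3.28% and 0.403% of all genes above. Like the other lists, this one was chosen with earlier results of these data known, so its share beside that of all genes is a description only. Osr2, a zinc-finger factor of the lingual side of the tooth germ, was at 18.6, 16.8 and 17.1 CPM in controls, against 38.6, 34.8 and 28.8 CPM in mutants. Dlx1, a homeobox gene of the maxillary and mandibular mesenchyme, was at 34.9, 28.0 and 31.7 CPM in control and 52.0, 55.0 and 41.2 CPM in Lhx6-/- libraries. Exons of Dlx1 overlap those of Dlx1as on the other strand, and as for Ldb1, reads of the overlap may belong to either gene. For Osr2 and Dlx1 all mutant libraries were above all controls. The log2 fold change was 0.96 for Osr2 (standard error 0.11, adjusted p = 0.00484, edgeR) and 0.65 for Dlx1 (standard error 0.12, adjusted p = 0.0413, edgeR). Dlx1 lost the adjusted call in 8 of 17 alternative fits, with log2 fold changes of 0.32 (dental epithelium covariate, adjusted p = 0.522, edgeR) to 0.85 over all 17, among them those without control replicate 2 or 3 (0.0841 and 0.237, edgeR) and without Lhx6-/- replicate 1 or 2 (0.2 and 0.201, edgeR). Osr2 lost it in 1 of 17, with the dental epithelium covariate, where its log2 fold change was 0.74 (adjusted p = 0.136, edgeR). The median log2 fold change of the 19 genes was 0.17, and 8 had an unadjusted p under 0.05, as 9.81% of all genes had. With the dental epithelium covariate, the summed level of markers that was lower in all 3 Lhx6-/- libraries, the median was 0.07 and both genes lost the adjusted call. Without control replicate 2 the median was 0.11, and 1 gene had an adjusted p under 0.05.

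**Figure D5:**
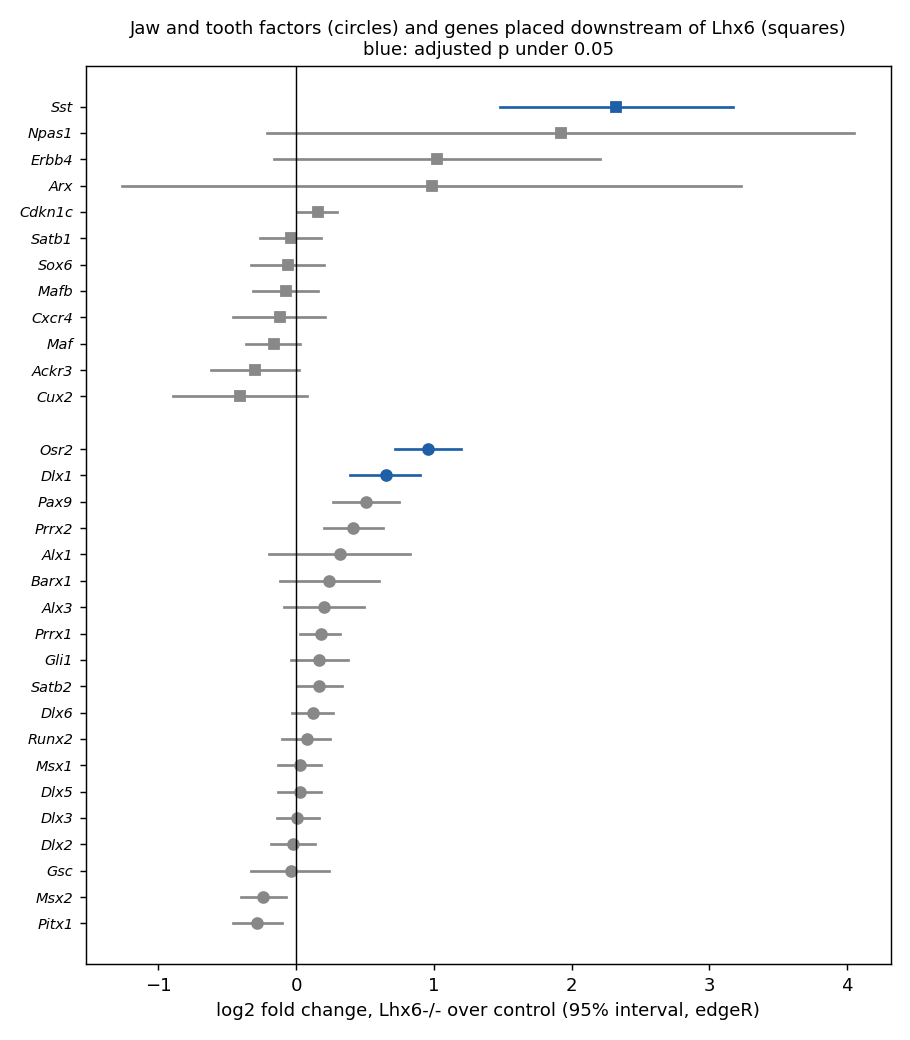
Log2 fold change of Lhx6-/- over control (x axis) with 95% intervals from edgeR for 19 jaw and dental factors (circles) and 12 genes placed downstream of or beside Lhx6 (squares); blue marks an adjusted p under 0.05. Osr2 (0.96), Dlx1 (0.65) and Sst (2.32) are blue, and most other intervals cross 0.

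The genes whose profile over the 6 libraries was most like that of Lhx6 were found by the root mean square difference of log2 CPM, each gene centred on its mean, over 11564 genes of at least 5 CPM on average. The closest was Notum, a secreted Wnt inhibitor, with a difference of 0.180 on the log2 scale, against a median of 0.565 over all candidates and 0.672 for Lhx8. Notum was at 18.5, 13.5 and 19.0 CPM in controls, against 8.95, 9.12 and 9.12 CPM in mutants. All mutant libraries were below all controls, as they were for Lhx6. Pbdc1 (0.231), S100a9 (0.232), Fcho1 (0.233) and Cst6 (0.258) came next. These 5 genes were picked by likeness to a gene that differs between genotypes, so their own difference is a description.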

How the data were processed

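RNA of 6 laser-captured libraries, 3 control and 3 Lhx6-/-, was read as single ends of 75 cycles. Per the methods and the submitters' processing notes, the authors trimmed reads, aligned them to mm10 with STAR 2.6.1d and used Partek. They deposited estimated counts per gene, not normalized; the methods' RPKM values were not used. A second table holds means and the authors' comparison (ratio, fold change, p-value, false discovery rate), and from it only gene names, positions and the deposited mean, a value of 1 + scaled counts, were read, to check the gene order (largest relative deviation 1.14e-07). The counter and annotation are not given in the sources used here. Libraries were named and grouped by their sample titles.

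Estimated counts were rounded and tested with edgeR 4.0.16 (R 4.3.3; TMM, factors 0.9775 to 1.044; expression filter; robust quasi-likelihood, genotype only, two-sided, Benjamini-Hochberg over 20114 genes). The biological coefficient of variation was 0.202; with 3 libraries per group, abundant genes are limited by spread and low genes also by counting error. Exon lengths are unions of GENCODE vM21 exons; promoters are from RefSeq. The code was tested on simulated data. DESeq2 1.42.0, limma-trend (limma 3.58.1), other scalings and filters, a replicate block, 2 covariates and leaving out each library were the alternatives. Figures used matplotlib 3.10.9 in Python 3.11.15. Named were the 10 genes, the family list, listed genes past a threshold and the 5 genes most like Lhx6; other listed genes were named after their values were seen. The genes and lists were chosen with earlier results of these data known.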

Additional observations from a re-analysis of the deposited data

How the results depend on the processing

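Lhx6 was lower in all 17 alternative fits, and its adjusted p was not under 0.05 in 4 of them: -0.62 on the log2 scale with the Y-linked covariate (adjusted p = 0.115, edgeR), and with control replicate 3 (adjusted p = 0.111), mutant replicate 2 (0.11) or mutant replicate 3 (0.0772, edgeR) left out. Leaving out each library in turn gave -1.17 to -0.86. The cause was not tested, and both covariates differ between the genotypes, so their fits cannot separate covariate from genotype. Over all genes 660 met the fold rule, 1174 with the Y-linked covariate and 607 to 968 with a library left out. At an adjusted p under 0.05 there were 81 genes, against 315 in DESeq2, 134 with the replicate block, 233 with the Y-linked and 20 with the dental epithelium covariate, and 12 (without control replicate 3) to 127 (without control replicate 1) with a library left out, 31 without Lhx6-/- replicate 1 and 20 without Lhx6-/- replicate 2. Of the 10 genes, 1 to 2 met the fold rule with a library left out: Isl1 joined Lhx6 without control replicate 1 (log2 fold change -1.12), and Lmo1 without Lhx6-/- replicate 2. With the Y-linked covariate 2 met it, Isl1 at -1.87. The Lhx6 to Lhx8 log2 ratio differed by -1.44 to -1.18 with a library left out and by -1.22 with 1 CPM added.

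The methods name littermates and pairs of samples without saying which libraries pair, and the count table numbers the Lhx6-/- libraries 2, 3 and 4 where the titles have 1, 2 and 3. By the titles, same-numbered libraries correlated at 0.026, -0.029 and -0.031 in their deviations, so the numbers were not taken as pairs. With the replicate block Lhx6 was at -1.02 (adjusted p = 0.00082, edgeR). Libraries of 3 a group limit the low genes Lhx2, Isl1, Lmx1b and Lhx9 most.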

Other observations

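LIM domains also occur in cytoskeletal and adhesion proteins that have no homeobox. Of 46 such genes, all tested, 22 had a higher and 24 a lower mean in Lhx6-/- tissue, and the median log2 fold change was -0.01. By edgeR 0 met the fold rule, 0 had an adjusted p under 0.05 and 5 had an unadjusted p under 0.05, against 3.28%, 0.403% and 9.81% of all genes. With the Y-linked covariate 4 met the fold rule, and with the dental epithelium covariate 1. The summed level of the list was 1803 to 1926 CPM in control and 1871 to 1878 CPM in Lhx6-/- libraries.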
